A study of Mus musculus with 46 samples.

Results

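ABC and organic anion transporter genes are described here in mouse liver after a lipid-rich diet (LD) or a carbohydrate-rich diet (CD). The genes were taken by symbol from the table of RNA counts, as those whose name starts with Abc, a letter from a to g and a digit, or with Slco and a digit, and 65 of the 25494 genes in the table met this rule. The animals were male C57BL/6 mice, purchased at 5 weeks of age, no group carries a genetic change in its labels, and all assays used liver tissue. The LD, labelled as a high-fat diet, gave 60% of its energy as lipid, and the CD, labelled as a low-fat diet, gave 70% as carbohydrate. Both were defined diets fed for 20 weeks, so that the CD mice were not chow-fed controls. RNA was sequenced in 5 mice per diet, H3K27ac, a histone mark of active promoters and enhancers, in 3 samples per diet, and the liver transcription factors Hnf4α and C/EBPα in 2 samples per diet each. Promoter capture Hi-C (PCHi-C), which lists the genomic fragments that a promoter touches in the nucleus, was run on 2 samples per diet and deposited as 1 pooled list per diet. The sources used here do not say which samples of the different assays came from the same animal.

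ABC transporters use ATP to move a substrate across a membrane, mostly outward or into an organelle. In the hepatocyte they pump bile salts, phospholipid, sterols and conjugates across the canalicular membrane into bile, return conjugates to the blood across the basolateral membrane, and load peroxisomes with fatty acyl-CoA. The organic anion transporting polypeptides, encoded by the Slco genes, take up bile acids, hormones and drugs from the sinusoidal blood without using ATP. The Abce and Abcf members carry the ATP-binding domains without a membrane part and act in translation.

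The diets differed in 19 of the 48 transporter genes that had enough counts to be tested, with 9 higher and 10 lower on LD. Calls required an adjusted p-value under 0.05 in the quasi-likelihood test of edgeR together with a fold above 1.2. This was 39.6% of the tested transporters, against 24.9% of all 13494 tested genes, of which 13.8% were higher and 11.1% lower. The 5 LD mice lay entirely above or below the 5 CD mice in 14 of the 48 genes (29.2%), against 18.5% of all tested genes. Of these 14 genes, 5 were above (10.2% of all tested genes) and 9 below (8.35%), and 13 of the 19 called genes had diets that did not overlap. The median log2 fold change of the tested transporters was 0.04, and that of all tested genes was -0.00. In whole liver, fewer cells of a type and less RNA per cell cannot be told apart.

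**Figure D1:**
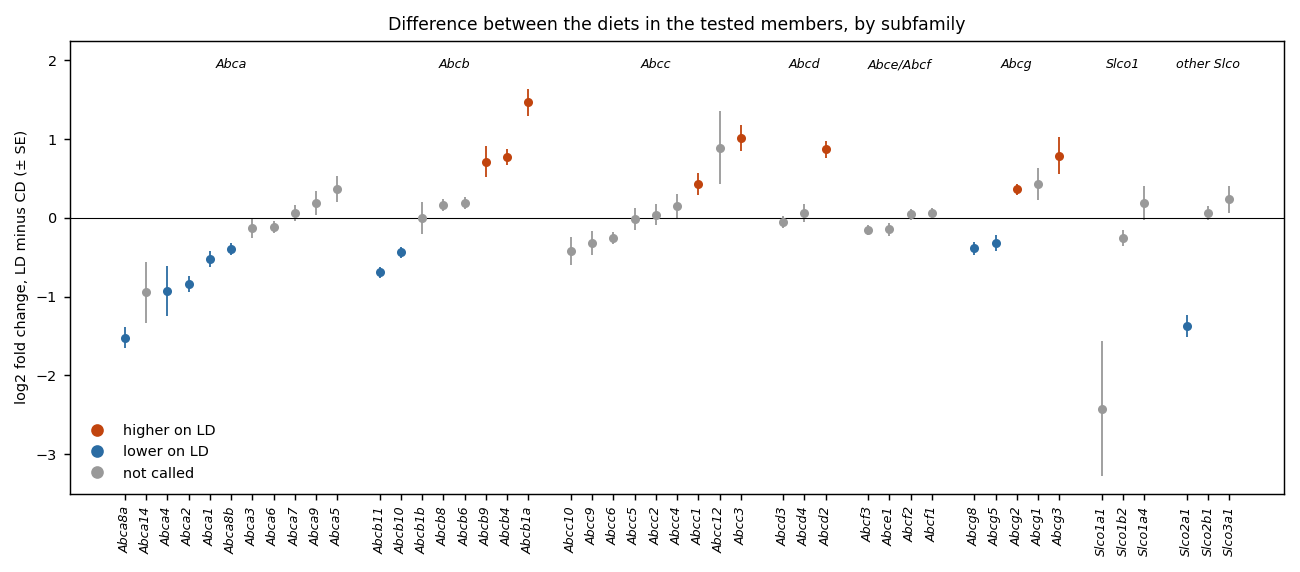
Log2 fold change of RNA between the diets (LD minus CD, vertical axis) with its standard error for the tested genes, ordered by subfamily and coloured by call. The 5 called Abca genes lie below 0, the called Abcc and Abcd genes lie above 0, and the Abcb and Abcg subfamilies hold calls on both sides.

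By subfamily, the calls were not spread alike. Of the 11 tested Abca genes, 5 were lower and the others were not called. Of the 9 tested Abcb genes, 3 were higher and 2 lower, and of the 5 tested Abcg genes, 2 were higher and 2 lower. The called Abcc genes (2 of 9) and Abcd genes were higher. Among the Slco genes outside Slco1, 1 of 3 was lower. Neither the 4 Abce and Abcf genes nor the 3 tested Slco1 genes were called by edgeR. At an unadjusted p under 0.05, 1 of the former (Abcf3) and 2 of the latter (Slco1a1 and Slco1b2) passed, and of all these DESeq2 and limma called Slco1a1. The subfamilies were not tested against each other.

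The sinusoidal uptake genes held the largest fitted decrease of all tested transporters, that of Slco1a1, and 1 call, that of Slco2a1. Slco1b2 (Oatp1b2) and Slco1a1 (Oatp1a1) take up bile acids and steroid conjugates, Slco1a4 and Slco2b1 share parts of that range, and Slco2a1 is a prostaglandin transporter. On CD the most abundant of them by TPM, which accounts for transcript length, was Slco1b2 (1110.0 ± 175 TPM on LD and 1256 ± 106 TPM on CD; SD, n = 5 here and below), followed by Slco1a1 (90.3 ± 87.5 TPM on LD and 464 ± 57.2 TPM on CD). Summed over these 5 genes, the level was 1860 to 2891 CPM in the LD mice and 3473 to 3820 CPM in the CD mice, without overlap. Without Slco1a1, the other 4 summed to 1844 to 2490 CPM on LD and 2421 to 2785 CPM on CD, and the diets overlapped. Values per mouse below are in CPM, counts scaled to the size of each library, and are listed from the lowest to the highest.

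Slco1a1 (chr6:141855802-141895483, minus strand, RefSeq gene positions of mm9 here and below) had 16.2, 27.2, 136, 374 and 401 CPM in the LD mice and 863, 968, 1035, 1071 and 1184 CPM in the CD mice. Every LD mouse lay below every CD mouse, and the LD mice themselves spread over more than an order of magnitude. The gene was not called by edgeR (log2 fold change -2.42, SE 0.856, adjusted p = 0.0678). It was called by DESeq2 (adjusted p = 0.0103), by limma on log2(TPM + 1) (adjusted p = 0.0294) and by edgeR without robust weights (adjusted p = 0.019), while the 10 fits without 1 mouse gave adjusted p-values of 0.0567 to 0.139. Slco1a1 is known as a male-predominant gene of mouse liver, and the genes of a list of other male-biased genes were low on LD as well: of 14 tested, 11 were called lower and the other 3 were not called. Their summed level was 4948 to 15860 CPM on LD and 12740 to 17450 CPM on CD, with overlap. Much of it came from Mup20, a major urinary protein gene of a family of near-identical copies, which was not called. Without Mup20 the other 13 genes summed to 1542 to 4068 CPM on LD and 5388 to 6740.0 CPM on CD, without overlap, and the pair of LD mice with the least Slco1a1, replicates 4 and 5, had the lowest sums (1930.0 and 1542 CPM). Of 8 tested female-biased genes, 3 were higher and 1 was lower. The part of this sex-biased pattern in the Slco1a1 difference was not tested.

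Slco2a1 (chr9:102910819-102990179) was the uptake gene that edgeR called lower, with 10.7, 10.8, 10.8, 15.2 and 15.6 CPM in the LD mice and 26.1, 29.9, 33.5, 34 and 39.8 CPM in the CD mice (log2 fold change -1.37, SE 0.14, adjusted p = 4.04e-05). The diets did not overlap. Slco1b2 had 1489, 1782, 2075, 2078 and 2218 CPM in the LD mice and 2135, 2183, 2317, 2388 and 2490.0 CPM in the CD mice (log2 fold change -0.26, SE 0.103, adjusted p = 0.0802). Of the LD mice, 4 were below all CD mice, but the diets overlapped, and the gene was called only when LD replicate 1 was left out (adjusted p = 0.0435). Slco1a4 had 48.2, 49.2, 51.9, 63.8 and 105 CPM in the LD mice and 48.4, 51.5, 52.6, 59.4 and 66.9 CPM in the CD mice, and Slco2b1 had 175, 188, 205, 220.5 and 239 CPM in the LD mice and 178, 191, 195, 205 and 219 CPM in the CD mice. Neither was called (log2 fold change 0.19, SE 0.212, adjusted p = 0.547 for Slco1a4, and log2 fold change 0.06, SE 0.0887, adjusted p = 0.671 for Slco2b1), and the diets overlapped in both. The highest LD value of Slco1a4, in replicate 4, stood apart from the other 4 LD mice.

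The DNA at 3 Slco genes is shown because a factor peak there differed between the diets or, for Slco1a1, because its fitted decrease was the largest, although it was not called. The sequences are from the NCBIM37 genome (mm9), 5′ to 3′ on the strand of the gene. Capitals mark matches to CAAAGNNCA, a core of the Hnf4α motif, or to TTGCNNAA, a core of the C/EBPα motif, searched on both strands. The first is the stretch of the Slco2a1 promoter just upstream of its start (chr9:102910655-102910816, plus strand), where the C/EBPα peak was lower and an Hnf4α peak was called on LD only. It has no match to either string. The others are the centre of the Hnf4α peak upstream of Slco1a1 (chr6:141896221-141896420, minus strand) and of the C/EBPα peak in an intron of Slco2b1 (chr7:106828996-106829195, minus strand).
Slco2a1: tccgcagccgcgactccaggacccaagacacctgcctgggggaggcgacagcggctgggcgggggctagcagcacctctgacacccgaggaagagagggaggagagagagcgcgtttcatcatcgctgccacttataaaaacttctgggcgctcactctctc
Slco1a1: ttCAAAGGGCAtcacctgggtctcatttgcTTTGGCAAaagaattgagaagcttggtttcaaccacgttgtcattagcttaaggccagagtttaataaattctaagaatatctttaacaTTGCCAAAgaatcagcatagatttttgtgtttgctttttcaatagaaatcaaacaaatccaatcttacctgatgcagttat
Slco2b1: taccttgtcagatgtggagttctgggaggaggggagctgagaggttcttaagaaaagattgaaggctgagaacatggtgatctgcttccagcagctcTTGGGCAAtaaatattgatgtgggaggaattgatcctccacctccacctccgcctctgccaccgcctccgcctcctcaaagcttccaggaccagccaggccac

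The Slco1a1 stretch holds 1 match to the Hnf4α string and 2 to the C/EBPα string, and the Slco2b1 stretch holds 1 C/EBPα match near its centre. A match is a stretch of letters, not a tested binding site. Of all Hnf4α loci with a known chromosome sequence, 23.0% had the Hnf4α string in their central 200 bases, and of those near the transporter genes 27.5% did. The C/EBPα string was in 40.6% of all C/EBPα loci and in 48.3% of those near the transporters. For comparison, the C/EBPα string was in 18.0% of all Hnf4α loci and the Hnf4α string in 11.5% of all C/EBPα loci.

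Among the canalicular exporters, which move their substrates into bile, 3 rose and 3 fell of 8 tested. Abcb11 (the bile salt export pump) and the sterol pumps Abcg5 and Abcg8 fell. Abcb4 (the phosphatidylcholine floppase Mdr2), Abcg2 (a pump for conjugates and drugs) and Abcb1a (a P-glycoprotein for drugs) rose. On CD Abcb11 was the more abundant of the bile salt and phospholipid pumps (225 ± 24.3 TPM on LD and 344 ± 23 TPM on CD), and on LD it was level with Abcb4 (225 ± 36.3 TPM on LD and 125 ± 15.9 TPM on CD).

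Abcb11 (chr2:69076339-69180673) had 537, 568, 573, 583 and 634 CPM in the LD mice and 883, 896, 944, 948 and 1009 CPM in the CD mice (log2 fold change -0.69, SE 0.0707, adjusted p = 2.87e-05). Abcb4 (chr5:8893721-8959226) had 392, 429, 523, 530.0 and 535 CPM in the LD mice and 249, 252, 281, 311 and 319 CPM in the CD mice (log2 fold change 0.77, SE 0.106, adjusted p = 0.000227). The diets did not overlap in either gene, and they moved in opposite directions. Abcg2 had 154, 169, 175, 175 and 179.5 CPM in the LD mice and 120.2, 125, 134, 139.6 and 143 CPM in the CD mice (log2 fold change 0.36, SE 0.0697, adjusted p = 0.00194), a small difference between tight groups that did not overlap. Abcb1a (chr5:8660092-8748570) had 9.28, 9.79, 10.2, 11.4 and 13.5 CPM in the LD mice and 2.96, 3.55, 3.55, 3.59 and 5.92 CPM in the CD mice (log2 fold change 1.47, SE 0.173, adjusted p = 8.64e-05). It had the largest increase of all transporters called, from a low level (4.16 ± 0.853 TPM on LD and 1.42 ± 0.436 TPM on CD), and all LD mice were above the CD mice although CD replicate 3 stood apart from the rest of its group.

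Abcg8 had 71, 81.2, 84.3, 91.6 and 94.1 CPM in the LD mice and 102, 103, 109, 115 and 122 CPM in the CD mice (log2 fold change -0.39, SE 0.0833, adjusted p = 0.00411). Abcg5 had 63.2, 75.6, 75.8, 76.5 and 84 CPM in the LD mice and 81.3, 88.5, 89.1, 89.2 and 118 CPM in the CD mice (log2 fold change -0.31, SE 0.1, adjusted p = 0.0318). These genes encode the subunits of 1 sterol pump and lie head to head on chromosome 17, with annotated bodies that overlap on opposite strands, and the authors' counting was by strand. The diets overlapped in Abcg5, whose call was lost without CD replicate 3 (adjusted p = 0.0672), LD replicate 3 (0.0599) or LD replicate 5 (0.0741), and by limma. Abcc2 (Mrp2, a pump for glutathione and glucuronide conjugates) had 392, 462, 478, 488 and 547 CPM in the LD mice and 354, 406, 442, 504 and 594 CPM in the CD mice (log2 fold change 0.04, SE 0.129, adjusted p = 0.837). It was not called, and neither was Abcb1b, the second P-glycoprotein gene, with 0.944 ± 0.188 TPM on LD and 0.896 ± 0.256 TPM on CD. Abcb1a and Abcb1b are close paralogs, and how their shared reads were divided was set by the authors' counting.

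The basolateral exporters, which return conjugates and bile acids to the blood, had 2 calls among 5 tested genes, both higher. Abcc3 (Mrp3) had 122 ± 19.3 TPM on LD and 57.6 ± 15.1 TPM on CD, and Abcc6 had 44.9 ± 3.12 TPM on LD and 51.1 ± 5.83 TPM on CD, so that on CD their levels differed by less than the SD of Abcc3. It (chr11:94204609-94254290) had 256, 292, 322, 353 and 392 CPM in the LD mice and 128, 138, 139.5, 169 and 226 CPM in the CD mice (log2 fold change 1.01, SE 0.161, adjusted p = 0.000864), and the diets did not overlap. Abcc1 (Mrp1) had 5.92, 5.97, 6.21, 6.57 and 7.97 CPM in the LD mice and 3.75, 4.3, 4.74, 5.56 and 5.92 CPM in the CD mice (log2 fold change 0.43, SE 0.14, adjusted p = 0.0346). The lowest LD mouse and the highest CD mouse met, and the call was lost in 6 of the 10 fits without 1 mouse (LD replicates 2, 3 and 5, CD replicates 3, 4 and 5), with an adjusted p of up to 0.0827. Abcc4 (Mrp4) had 4.79, 5.82, 6.01, 6.46 and 6.89 CPM in the LD mice and 4, 4.89, 5.03, 6.16 and 6.91 CPM in the CD mice (log2 fold change 0.15, SE 0.15, adjusted p = 0.495), with no call. Abcc6, a basolateral protein needed for the release of ATP from hepatocytes, had 108, 113, 117, 124 and 124 CPM in the LD mice and 124, 133, 139.5, 149 and 158 CPM in the CD mice (log2 fold change -0.26, SE 0.0755, adjusted p = 0.0202). Its fold change lay at the threshold of 1.2, so that it was not called by edgeR, was called by DESeq2 (adjusted p = 0.00624) and was called in 5 of the 10 fits without 1 mouse (LD replicates 1 and 3, CD replicates 1, 2 and 4).

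**Figure D2:**
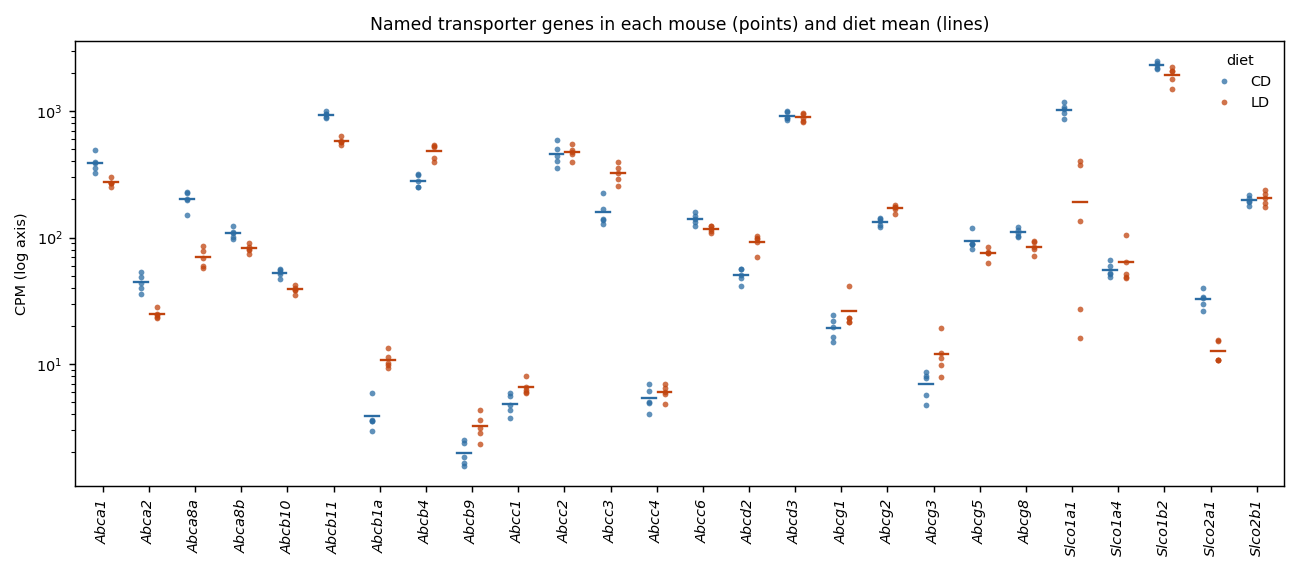
Level of named genes in each mouse (points, CPM on a log axis), with LD and CD side by side and a line at the mean of each diet. Slco1a1 on LD has the widest spread, whereas the LD and CD points of Abcb11, Abcb4, Abca8a, Slco2a1 and Abcg2 form separate groups.

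The genes of sterol and lipid efflux and the related Abca genes had calls on the lower side. Abca1, which loads cholesterol and phospholipid onto apolipoprotein A-I, had 251, 270.2, 271, 272 and 299.5 CPM in the LD mice and 325, 354, 391, 395 and 489 CPM in the CD mice (log2 fold change -0.52, SE 0.0995, adjusted p = 0.00202). Abca2, an endosomal lipid transporter, had 23.2, 23.5, 24.3, 24.8 and 28.2 CPM in the LD mice and 35.6, 40.2, 44, 48.9 and 53.2 CPM in the CD mice (log2 fold change -0.84, SE 0.101, adjusted p = 8.73e-05). The diets did not overlap in either of them. Abcg1, which delivers sterol to HDL particles, had 21.5, 21.5, 23.1, 23.2 and 41.2 CPM in the LD mice and 14.8, 16.4, 19.4, 21.8 and 24.4 CPM in the CD mice and was not called (log2 fold change 0.43, SE 0.2, adjusted p = 0.134). One LD mouse, replicate 2, lay far above the other LD mice, which overlapped the CD mice. The same mouse had the highest summed level of the macrophage markers (750.5 CPM, where the other 9 mice had 261.1 to 513.6 CPM), and the part of this in the Abcg1 level was not tested. Of the 5 tested genes of this role, 2 were lower, and the summed level was 379.8 to 419.5 CPM on LD and 449.7 to 648.8 CPM on CD. Most of that sum was Abca1, and without it the other 4 tested genes gave 120.1 to 130.2 CPM on LD and 125.1 to 159.5 CPM on CD, with overlap.

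A cluster on chromosome 11 holds Abca8b, Abca8a, Abca9, Abca6 and Abca5 in that order by coordinate, all on the minus strand, and its members differed in their response. Abca8a (chr11:109886948-109957251) had 57.4, 59.9, 68.7, 78.8 and 86.5 CPM in the LD mice and 150.1, 199.8, 202, 227 and 229.7 CPM in the CD mice (log2 fold change -1.52, SE 0.135, adjusted p = 1.86e-05), which was the largest decrease among the called transporters. Abca8b had 74.2, 79.8, 81.8, 84 and 90.9 CPM in the LD mice and 97, 101, 108, 111 and 123 CPM in the CD mice (log2 fold change -0.40, SE 0.077, adjusted p = 0.00217). The diets did not overlap in either, and the fold of Abca8a was the larger. Abca6, the most abundant gene of the cluster (128 ± 14.4 TPM on LD and 132 ± 11.9 TPM on CD), was not called, nor were Abca9 (3.63 ± 0.979 TPM on LD and 3.01 ± 0.31 TPM on CD) and Abca5 (2.59 ± 0.997 TPM on LD and 1.88 ± 0.206 TPM on CD). Abca8a and Abca8b are close paralogs, and how reads shared by them were divided was set by the authors' counting. Abca4, a retinoid lipid flippase known from the retina, was at a very low level (0.0739 ± 0.0291 TPM on LD and 0.135 ± 0.0348 TPM on CD), and its lower call (log2 fold change -0.93, SE 0.318, adjusted p = 0.0417) was lost in 7 of 10 fits without 1 mouse (LD replicates 1, 2, 3 and 5, CD replicates 2, 3 and 4; adjusted p up to 0.0987), by limma and without a filter on low counts.

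The sequence under the C/EBPα peak upstream of Abca8a is given because that peak was called on LD only while the gene fell (chr11:109958899-109959098, mm9, minus strand, positions -1847 to -1648 from the start). Its single match to the C/EBPα string is a full palindrome.
Abca8a: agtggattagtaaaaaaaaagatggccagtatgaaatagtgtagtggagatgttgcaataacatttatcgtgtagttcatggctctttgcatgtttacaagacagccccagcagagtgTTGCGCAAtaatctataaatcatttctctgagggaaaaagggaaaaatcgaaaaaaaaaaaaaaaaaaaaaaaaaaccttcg

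The Abcd genes act in the peroxisome and lysosome. Abcd2 imports very-long-chain fatty acyl-CoA into peroxisomes for oxidation, Abcd3 also imports branched-chain and bile acid precursors, and Abcd4 acts in lysosomal cobalamin transport. Abcd2 (chr15:90976302-91022238) had 70.3, 92.7, 96.7, 99.7 and 102 CPM in the LD mice and 41.2, 48, 50.6, 55.9 and 56.3 CPM in the CD mice (log2 fold change 0.87, SE 0.108, adjusted p = 0.000124). It rose, and the diets did not overlap. Abcd3 had 826, 829, 889, 952 and 957 CPM in the LD mice and 856, 879, 889, 975 and 1002 CPM in the CD mice (log2 fold change -0.05, SE 0.0763, adjusted p = 0.687) and was not called. It was far more abundant (497 ± 35.2 TPM on LD and 486 ± 39 TPM on CD) than Abcd2, which had 31.6 ± 4.99 TPM on LD and 16.3 ± 1.81 TPM on CD, and Abcd4, which had 4.35 ± 0.535 TPM on LD and 3.93 ± 0.393 TPM on CD and no call.

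The stretch upstream of Abcd2 with peaks of both factors on LD only is given for that reason (chr15:91033023-91033222, mm9, minus strand, positions -10984 to -10785 from the start). It holds 2 matches to the C/EBPα string and none to the Hnf4α string.
Abcd2: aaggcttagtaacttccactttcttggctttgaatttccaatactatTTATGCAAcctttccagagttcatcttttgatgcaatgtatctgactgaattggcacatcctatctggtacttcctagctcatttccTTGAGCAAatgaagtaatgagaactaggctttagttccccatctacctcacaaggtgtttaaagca

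Among the mitochondrial transporters, Abcb10 fell. Abcb10, an inner-membrane transporter that serves haem synthesis, had 35.4, 38.4, 38.7, 39.8 and 42.4 CPM in the LD mice and 46.7, 51.7, 53.7, 55.5 and 56.1 CPM in the CD mice (log2 fold change -0.44, SE 0.0687, adjusted p = 0.000563), and the diets did not overlap. Abcb6 and Abcb8 were not called, with log2 fold changes of 0.19 and 0.17. Abcb9, a lysosomal peptide transporter, had 2.31, 2.85, 3.14, 3.63 and 4.37 CPM in the LD mice and 1.56, 1.64, 1.84, 2.37 and 2.5 CPM in the CD mice (log2 fold change 0.71, SE 0.197, adjusted p = 0.0158). Abcg3, a mouse gene of the Abcg subfamily, had 7.85, 9.9, 11.2, 12.1 and 19.1 CPM in the LD mice and 4.76, 5.64, 7.77, 8 and 8.64 CPM in the CD mice (log2 fold change 0.79, SE 0.235, adjusted p = 0.0267). Its highest value, 19.1 CPM, was that of LD replicate 2, the mouse with the highest macrophage marker sum, and its call held without that mouse. Abcb9 and Abcg3 were called higher while single mice of the diets overlapped. The call of Abcg3 was lost without CD replicate 3 (adjusted p = 0.0633) or CD replicate 4 (adjusted p = 0.058). CD replicates 3 and 4 had the lowest Abcg3 and the lowest macrophage marker sums of the CD mice (296.2 and 281 CPM). LD replicate 5, with the lowest sum of all mice (261.1 CPM), had 11.2 CPM of Abcg3. The part of macrophages in the Abcg3 level was not tested. The translation genes Abce1, Abcf1, Abcf2 and Abcf3 had log2 fold changes of -0.15, 0.06, 0.04 and -0.15, and none was called by edgeR, DESeq2 or limma, with Abcf3 alone under 0.05 before adjustment.

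The other tested transporters without a call were Abca3, Abca7, Abca14, Abcc5, Abcc9, Abcc10, Abcc12 and Slco3a1, and their log2 fold changes were between -0.95 (Abca14) and 0.89 (Abcc12). Abcc9, a subunit of ATP-sensitive potassium channels, was called when LD replicate 2 was left out (adjusted p = 0.0378).

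The remaining 17 transporters had too few counts for a test. Of these, 8 had no count in any mouse, and the largest total over the 10 mice was 62 counts. They were Abca12, Abca13, Abca15, Abca16, Abca17, Abcb5, Abcc8, Abcg4, Slco1a5, Slco1a6, Slco1c1, Slco4a1, Slco4c1, Slco5a1, Slco6b1, Slco6c1 and Slco6d1. Of this group, Slco1c1 alone had H3K27ac within 1 kb of its start in all 6 samples. This was so for 42 of the 48 tested transporters (87.5%), and for 85.9% of all tested genes.

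Other carriers of bile acids and organic ions, taken from a list of genes outside the ABC and Slco families, showed 4 higher and 4 lower of 13 tested. Slc10a1, the sodium-dependent bile acid uptake carrier Ntcp, had 285, 356, 396, 399 and 474 CPM in the LD mice and 738, 791, 797, 854 and 873 CPM in the CD mice (log2 fold change -1.08, SE 0.113, adjusted p = 3.44e-05). Slc22a7, the organic anion carrier Oat2, had 7.94, 11.4, 12.2, 17.8 and 23.3 CPM in the LD mice and 27.3, 29.3, 34.1, 35.6 and 40.9 CPM in the CD mice (log2 fold change -1.198, SE 0.258, adjusted p = 0.0072). Like Slco2a1, and like Slco1a1, which edgeR did not call, both uptake genes fell without overlap of the diets. The canalicular phospholipid flippase Atp8b1 (log2 fold change -0.55) and its subunit Tmem30a (-0.50) fell too. Slc47a1 (0.59), Slc22a3 (0.69) and Slc10a2 (0.63) were among those that rose, and these carry organic cations or, for Slc10a2, bile acids.

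Of 13 tested regulators of these genes, 3 rose and the others were not called, where 24.9% of all tested genes were called in either direction. Nr1i3, which encodes the xenobiotic receptor CAR, changed by 0.67 on the log2 scale (adjusted p = 0.00984). Ppara, the fatty acid receptor, had 0.34 (adjusted p = 0.016), and Nfe2l2, the oxidant-response factor Nrf2, had 0.38 (adjusted p = 0.0226). Nr1h4, the bile acid receptor FXR, had -0.13 (adjusted p = 0.248), and its target Nr0b2 had -0.12 (adjusted p = 0.666). Hnf4a and Cebpa each had a log2 fold change of -0.26, with adjusted p-values of 0.0176 and 0.0202, and were not called because the fold was under 1.2. All LD mice were below all CD mice in Cebpa, and the diets overlapped in Hnf4a. The authors reported less Hnf4α mRNA and protein on LD, and a change in C/EBPα expression.

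Cell type markers were counted beside the 24.9% of all tested genes that were called, and their part in the transporter differences was not tested. The counts of called markers in these short lists are descriptions. The summed level of 10 hepatocyte markers was 89730 to 113100 CPM on LD and 102300 to 117100 CPM on CD, with 4 lower. The 7 tested cholangiocyte markers summed to 48.6 to 124.8 CPM on LD and 23.1 to 37.2 CPM on CD, with 1 higher (Spp1, which other cells also make) and 1 lower, while Krt7, Krt19, Epcam and Sox9 were not called. Spp1 made up most of that sum, and the other 6 gave 4.87 to 10.8 CPM on LD and 7.78 to 12 CPM on CD, with overlap. Of 10 macrophage markers 3 were higher (261.1 to 750.5 CPM on LD, 281 to 513.6 CPM on CD). Of 8 stellate cell markers 3 were higher and 1 lower (697.1 to 1009 and 595.4 to 737.7 CPM). Of 8 endothelial markers 1 was higher (493.2 to 698 and 557.1 to 686.2 CPM). Of 8 lymphocyte markers 1 was higher and 1 lower (3.91 to 10.3 and 5.48 to 6.79 CPM). Of the adipocyte list only Cfd was tested and was higher (4.08 to 42 CPM against 0.0952 to 1.34 CPM for the list), with Plin1 and Lep at 0 counts in every mouse.

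H3K27ac was measured as the share of the window from 20 kb before to 20 kb after each gene that the peaks of a sample cover. The share was higher on LD in all 3 samples for 14 of the 65 transporters and lower in all 3 for 8. Over all genes with coordinates the corresponding shares were 15.8% and 4.01%, and over the tested genes 21.7% and 5.84%. Lower windows were thus more frequent among the transporters than among genes in general, which is a description and not a test, since 3 samples against 3 allow no exact permutation p below 0.1. Peaks covered more of the genome in every LD sample (149.8 to 160.4 Mb) than in every CD sample (139.7 to 145.4 Mb). Windows of neighbouring genes overlap, as those of Abca8a, Abca8b and Abca9 do.

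The mark differed in the direction of the RNA for several transporters. Of the 9 genes higher in RNA, 6 had a higher share on LD and 0 a lower one, where 43.5% and 1.19% of all genes called higher did. Of the 10 genes lower in RNA, 5 had a lower share and 0 a higher one, against 18.2% and 7.01% of all genes called lower. Among the 29 tested genes without an RNA call, 7 were higher and 3 lower, beside 19.8% and 4.86% of all genes without a call.

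Abcb9 had the widest gain among genes higher in RNA, with covered shares of 24.4, 26.5 and 28.4% on LD and 7.85, 11.6 and 12.2% on CD. Abcc3 had 57.3, 60.4 and 64.7% on LD and 45.5, 47.5 and 53.7% on CD, and Abcg2 had 16.1, 16.9 and 17.2% on LD and 10.5, 11.8 and 13% on CD. In these genes, and in Abcb1a and Abcg3, every LD sample was above every CD sample. Abcb4 had 50, 50.5 and 54.3% on LD and 31.8, 34.2 and 52.2% on CD, so that 1 CD sample reached the LD range. On the lower side, Abca8a had 15.2, 18.3 and 19.6% on LD and 27.6, 28.1 and 29.2% on CD, Abcb11 had 5.54, 6.93 and 8.45% on LD and 9.56, 12.2 and 13.7% on CD, and Abcg5 had 24.4, 32.9 and 33.3% on LD and 34.8, 43.1 and 64.1% on CD. Abca8b and Abcb10 were separated as well. Slco1a1 had 12.8, 18.1 and 21.8% on LD and 22.8, 27.4 and 38.9% on CD, again without overlap, and Abcc6 had 12.4, 14.5 and 15.1% on LD and 19.2, 19.6 and 23.2% on CD. Slco2a1, whose RNA fell, showed no such separation, with 11.7, 12.7 and 12.9% on LD and 11.4, 12.7 and 12.9% on CD. Abca1 had 42.3, 47.4 and 51.1% on LD and 44.7, 50.6 and 54.2% on CD, also overlapping. Among genes without an RNA call, Abca7 had the widest gain of the mark, with 48.9, 51.6 and 54% on LD and 37.5, 38.5 and 42.3% on CD. Without LD replicate 1 of this assay, 14 transporters in place of 8 were lower on LD, and among all genes with coordinates the share rose from 4.01% to 7.5% when 2 samples were set against 3.

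**Figure D3:**
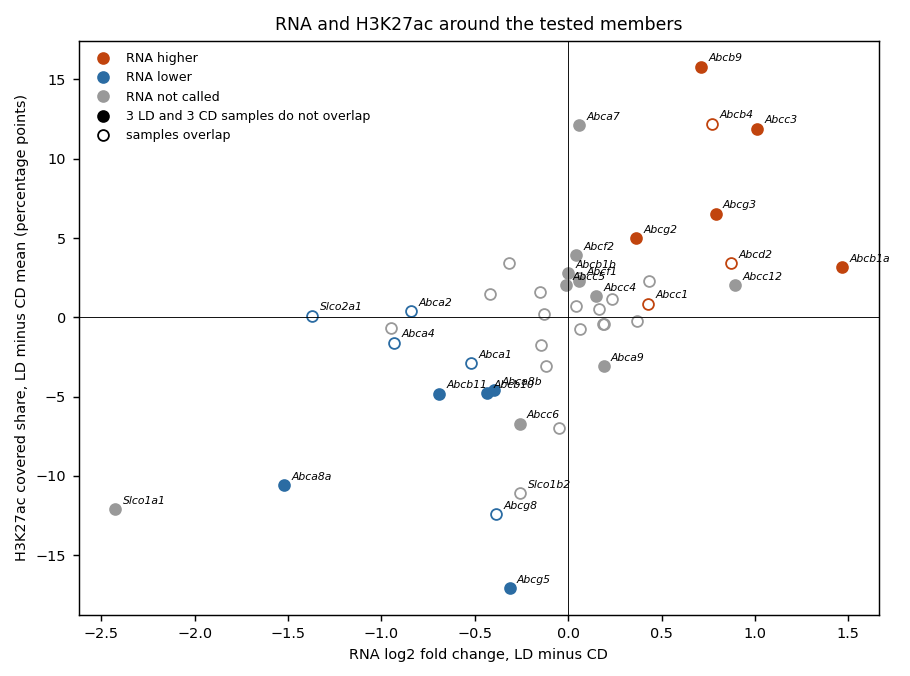
RNA log2 fold change (LD minus CD, horizontal axis) against the difference of the mean H3K27ac covered share within 20 kb (percentage points, vertical axis) for the tested genes. Filled points are genes whose 3 LD and 3 CD samples do not overlap, of which Abcb9, Abcc3, Abcg3, Abcg2 and Abcb1a lie in the upper right, Abca8a, Abcg5, Abcb11, Abcb10 and Abca8b in the lower left, while the open point of Slco2a1 lies near 0 on the vertical axis.

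Hnf4α is a nuclear receptor that maintains the hepatocyte programme, and C/EBPα is a leucine zipper factor of hepatocyte metabolism. Peaks of the 4 samples of a factor were merged, and a locus with a peak in at least 2 samples was kept. Within 20 kb of the transporters there were 244 of the 45851 Hnf4α loci, 136 of them with a peak in all 4 samples, and 174 of the 33006 C/EBPα loci, 68 of them in all 4. A locus was called higher on LD when both LD samples and neither CD sample had a peak, or when the lower LD height was at least 1.5 times the higher CD height, and lower in the reverse case. Heights are the normalised tag counts that HOMER wrote. They were taken as scaled to 1 common library size because the ratio of tags to height was the same in the 4 samples of a factor, which the peak lists do not state, and comparisons between samples rest on this. A missing peak says only that none was called. No test was run on the heights, and the calls are descriptions.

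The counts of factor loci near the transporters stand beside the shares among all loci, and the difference from those shares was not tested. For Hnf4α, 15 loci were higher (6.15%, against 9.32% of all loci) and 7 lower (2.87%, against 4.01%). For C/EBPα, 30 were higher (17.2%, against 16.2%) and 15 lower (8.62%, against 10.3%). These counts depended on single libraries. The median Hnf4α height at loci shared by all 4 samples was 35.8 and 33.5 in the LD samples but 21.5 and 42.8 in the CD samples, and without LD replicate 1, LD replicate 2, CD replicate 1 or CD replicate 2 the higher loci numbered 3, 6, 25 and 109 and the lower loci 24, 13, 29 and 0. For C/EBPα these medians were 24 and 25.5 on LD and 37.5 and 25 on CD, and without the same libraries in turn the higher loci numbered 4, 2, 62 and 47 and the lower loci 27, 30, 5 and 37. A diet then rests on 1 sample. Single loci are described by their 4 heights.

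In Abcb9 and Abcg2, both higher in RNA, an Hnf4α locus inside the gene was higher on LD in both samples. In an Abcb9 intron (chr5:124533959-124534270) the heights were 20 and 19.8 on LD and 5.5 and 7.75 on CD. This locus lay in H3K27ac peaks in 3 LD samples and 0 CD samples. In an exon of Abcg2 (chr6:58627853-58628112) the heights were 65.5 and 46.8 on LD and 9 and 26.2 on CD, with the CD samples apart from each other.

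Upstream of Abcd2 (chr15:91033013-91033231) Hnf4α peaks of 20.8 and 25.2 and C/EBPα peaks of 36.5 and 32 were called on LD and none on CD, within H3K27ac peaks in all 6 samples. In an intron of Abcb1a (chr5:8683744-8684017) C/EBPα peaks of 30.5 and 24.5 were called on LD only. At the promoter of Abcb1a both factors had loci that were called neither higher nor lower. Abcc3, with 11 Hnf4α and 8 C/EBPα loci, had 1 that differed, an Hnf4α locus on LD only of 9 and 10.5 in the neighbouring gene Ankrd40.

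At Abcb4, also higher in RNA, 1 Hnf4α locus had peaks on LD only (16 and 19.2), and 1 C/EBPα locus went the other way, with peaks on CD only (7 and 8.5).

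Near genes lower in RNA, loci also differed in both directions. At the Slco2a1 promoter (chr9:102910579-102910930) the C/EBPα heights were 6.5 and 7 on LD and 20 and 18.5 on CD, while at the same place Hnf4α peaks of 12.5 and 12.5 were called on LD only. Another C/EBPα locus (position -12032 from the start) had 38.5 and 39.5 on LD and 96 and 59.5 on CD, a difference that was not called once heights were divided by each sample's median. Of the 6 C/EBPα loci of Slco2a1, 3 were lower and 1 was higher on LD, the latter beyond the end of the gene with peaks of 12 and 14 on LD only. Upstream of Abca8a (chr11:109958861-109959135) C/EBPα peaks of 41 and 69.5 were called on LD only, and within the gene (chr11:109933510-109933738) Hnf4α peaks of 16 and 34.2 on CD only. Abca8b had 3 C/EBPα loci that were higher on LD. In an intron of Abca1 (chr4:53147792-53148009) Hnf4α peaks of 29.8 and 54.5 were called on CD only. At the Abcb11 promoter Hnf4α had 87.8 and 69 on LD and 66.2 and 139 on CD, which overlap.

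Loci also differed near genes without an RNA call. Abcc2 had 5 C/EBPα loci that were higher and 2 that were lower on LD, among them an intronic locus (chr19:43885989-43886362) with 45.5 and 54.5 on LD and 30 and 16.5 on CD. In the Slco2b1 intron printed above the C/EBPα heights were 17.5 and 13 on LD and 65 and 41.5 on CD, while the RNA was not called. Upstream of Slco1b2 (chr6:141562636-141562914) C/EBPα peaks of 35 and 82 were called on LD only, and at position -1741 from the start of Slco1a4 the heights were 24 and 22 on LD and 12.5 and 11 on CD. Upstream of Slco1a1 the Hnf4α heights were 16.2 in 1 LD sample, with no peak called in the other, and 8 and 41.5 on CD, so that the CD samples alone spanned the LD value.

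**Figure D4:**
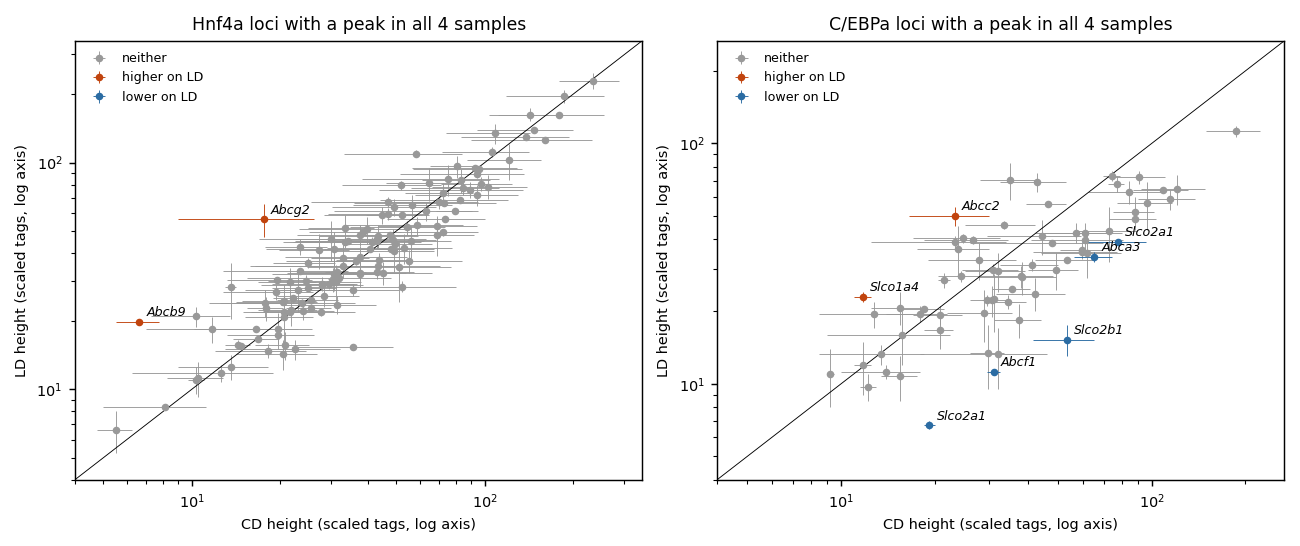
Mean peak height on CD (horizontal) and LD (vertical), both in scaled tags on log axes, for Hnf4α loci (left) and C/EBPα loci (right) near the transporters with a peak in all 4 samples; bars reach to the 2 single samples. The Hnf4α loci of Abcb9 and Abcg2 lie above the diagonal, and the C/EBPα loci of Slco2a1, Slco2b1, Abca3 and Abcf1 below it.

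PCHi-C interactions with a CHiCAGO score of at least 5 and a distance of at most 1 Mb were counted for each transporter promoter. A bait fragment can hold the promoter of another gene too. That of Abca14, with 19 interactions, also names Crym, and these cannot be assigned to either gene. Of the 65 transporters 45 had any, and together they had 489 different interactions, 344 on LD and 394 on CD. Of these, 249 were on both diets (50.9%, against 53.8% of all interactions), 95 on LD only (19.4%, against 23.5%) and 145 on CD only (29.7%, against 22.7%). The tested transporters had a median of 3 interactions on LD and 5 on CD, where all tested genes had 3 and 3. At a score of at least 7, 41 passed on LD only, 64 on CD only and 77 on both diets, where all interactions at that score split into 21.5%, 23.1% and 55.4%. An interaction that passed this cut on 1 diet only can still have a score of 5 or more on the other diet. Each diet has 1 pooled list, so that these counts have no replicate check, and neighbouring fragments share signal. Abca1 alone had 81 interactions, of which 44 were on both diets, 14 on LD only and 23 on CD only. Of the 489 other ends, 251 lay in H3K27ac peaks of at least 2 samples, 137 in Hnf4α and 107 in C/EBPα peaks.

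The interactions of Slco1a1 were on CD only, 9 of 9. They joined the promoter to neighbouring fragments 69.2 to 100 kb away, with scores of 5 to 8.59. Among the 6917 promoters with at least 9 interactions, 2 (0.0289%) had none on LD, a comparison chosen after the values were seen. The cut of 9 and the pattern were taken from Slco1a1 itself, so that this share is not a test. Slco1a4 had 3 interactions, also on CD only, and their other ends were those of 3 Slco1a1 interactions. An absent interaction means a score under 5 in the pooled list, and 8 of the 9 Slco1a1 scores were between 5 and 6.25.

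For Abcb1b the reverse was found, with 9 interactions on LD only, 1 on both diets and scores of 5.25 to 9.56, while its RNA was not called. Of the same 6917 promoters 3 (0.0434%) had such a pattern, which was also looked for after the values were seen. That pattern was defined by the values of Abcb1b, so that this share is not a test either. Its neighbours on chromosome 5 differed from it: Abcb1a, higher in RNA, had 3 on both diets and 2 on LD only, and Abcb4, also higher in RNA, had 3 on both diets and 7 on CD only. Abcb11, lower in RNA, had 9 on both diets and 4 on CD only. Slco2a1 had 4 on both diets, 2 on LD only and 8 on CD only, and Abca8a had 19, 3 and 11. Abcc3 kept nearly all of its interactions, with 19 on both diets, 2 on LD only and 2 on CD only, and Abcb9 had 10 on both diets and 3 on LD only. Abcd2, higher in RNA, had 2 on both diets and 4 on CD only. Genes higher in RNA thus had either direction of interaction counts.

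**Figure D5:**
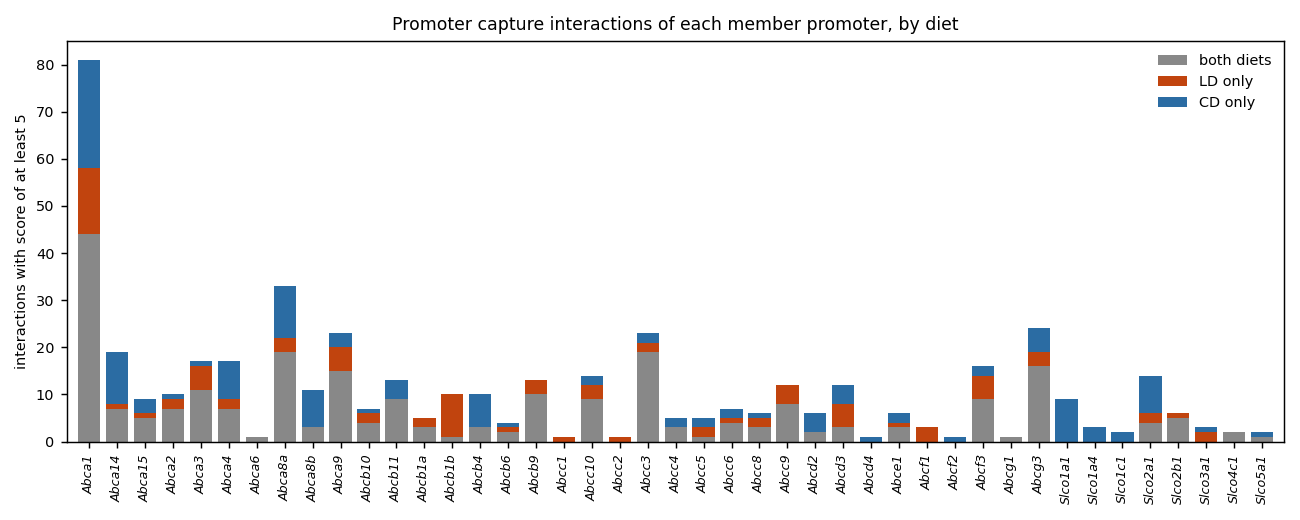
Number of interactions (score of at least 5, vertical axis) of transporter promoters that have any, split into those on both diets, on LD only and on CD only. All interactions of Slco1a1 and Slco1a4 are on CD only, Abcb1b has 9 on LD only, and Abca1 has the most with 81.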

How the data were processed

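The series holds 46 liver samples, grouped by diet from their labels. For RNA, the authors aligned read pairs with STAR 2.5 and counted them by strand on RefSeq genes of mm9 with featureCounts 1.5.0-p1; the deposited counts are raw, and TPM values were deposited beside them. One CD column of the TPM table carries no usable replicate number and was used as a CD sample without one. For H3K27ac, the authors called the deposited intervals per sample with SICER (windows of 200 bases, FDR 0.001). Peaks of Hnf4α and C/EBPα were called by the authors per sample with HOMER, and the deposited height of a peak is HOMER's normalised tag count, a signal taken here as scaled to 1 common library size (inferred from a constant ratio of tags to height), which does not show depth. The deposited CHiCAGO score of each PCHi-C interaction was computed by the authors on the merged replicates of a diet. ChIP reads were aligned with Bowtie 0.12.8 and duplicates removed with Picard 1.110. The authors' table of their own comparison (fold changes and p-values) and the Hi-C domains were not used here.

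The counts were tested with edgeR 4.0.16 under R 4.3.3, with TMM scaling, filterByExpr, a robust quasi-likelihood fit and Benjamini-Hochberg adjustment over 13494 genes, and depth was 31707963 to 39012699 counts per mouse. The common biological coefficient of variation was 0.147, and p-values judge the difference between the diets against the spread between mice. Peaks and interactions were analysed in Python 3.11.15 with pandas 2.3.3 and numpy 2.4.6, plots were drawn with matplotlib 3.10.9, and sequences were read with samtools 1.23.1 from NCBIM37, the assembly of mm9. Depth outside peaks is unknown, and no counting intervals are given. The steps were tested on simulated data.

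The transporter genes, the lists by role, cell type and sex bias, the tests and the thresholds were chosen with earlier results of these data known. Values per mouse are given for called genes with a mean of at least 1 TPM on a diet, up to 24, and for 20 transporters named without a threshold, 27 in all; Abca4 and genes outside this rule are described in part. A few of the tested genes are in the counts, but their values are not reported here and they are left out of the plots. Alternatives for RNA were DESeq2 1.42.0, edgeR with the size factors of DESeq2, omission of the count filter, a minimum of 10 counts per library, limma 3.58.1 on log2(TPM + 1) or log2(TPM + 0.1), a replicate block, the adjusted p alone and the omission of each mouse. For peaks they were windows of 10 and 50 kb, a ratio of 2, peaks of at least the median height and the omission of each H3K27ac sample, and for interactions scores of at least 7 and 10. The fit without robust weights, heights divided by a sample's median the omission of each factor library and the summed levels without 1 gene were chosen after seeing the data.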

Additional observations from a re-analysis of the deposited data

Results flagged for a closer look

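A value was singled out where 1 mouse stood apart from the other 4 of its diet by Dixon's criterion at 95%, which chance meets in about 1 of 20 groups. Of the 54 groups examined, the 27 named genes on 2 diets, 4 held such a mouse.

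Abcb1a had 5.92 CPM in CD replicate 3, where the next highest CD mouse had 3.59 CPM. Abcg5 had 117.9 CPM in the same mouse, and 89.3 CPM in the next. Abcg1 had 41.2 CPM in LD replicate 2, against 23.2 CPM in the next LD mouse, and Slco1a4 had 105.0 CPM in LD replicate 4, against 63.8 CPM. The call of Abcb1a held in every fit without 1 mouse. The call of Abcg5 did not hold without CD replicate 3 (adjusted p = 0.0672 by edgeR), nor without LD replicate 3 or LD replicate 5 (0.0599 and 0.0741). Abcg1 and Slco1a4 were not called in any fit without 1 mouse.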

How the results depend on the processing

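Of 861 values of single transporters under the alternatives, 822 kept their side of the threshold, 24 lost a call and 15 gained one. Of the 822, 795 kept their direction and 27 changed sign, none of them called in either fit. Leaving out 1 mouse gave 7 to 9 transporters higher and 8 to 11 lower on LD. Of the 19 called genes, 15 were called in all 10 of these fits, and Abca4, Abcc1, Abcg3 and Abcg5 were not, while Abcc6, Abcc9 and Slco1b2 were called in some. DESeq2, which was run without the count filter, called 10 higher and 12 lower, and limma on log2(TPM + 1) called 9 and 9. The lower calls that DESeq2 added to those of edgeR were Slco1a1 and Abcc6. The higher call that it added was a gene outside the 48 tested. The replicate numbers do not pair the mice: correlations of the deviations of same-numbered mice were -0.08, 0.19, 0.01, 0.01 and -0.04. With a replicate block, 10 were higher and 9 lower, of which 9 and 9 were also called without it. Abca4 was not called there (adjusted p = 0.0556 by edgeR), Abcg1 was, and Slco1a1 stayed uncalled (adjusted p = 0.0841 by edgeR), though its fitted log2 value moved to -3.30. Leaving out 1 H3K27ac sample gave 15 to 18 higher and 8 to 14 lower windows, with 14 without LD replicate 1.

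Counts of factor loci moved most. With peaks of at least the median height, 5 Hnf4α and 16 C/EBPα loci were higher. Windows of 10 and 50 kb gave 4 and 14 lower Hnf4α loci, and 50 kb gave 24 lower C/EBPα loci. Without 1 library, a diet rests on 1 sample, and Hnf4α gave 3 to 109 higher and 0 to 29 lower loci, and C/EBPα 2 to 62 higher and 5 to 37 lower. At a score of at least 7, 41 interactions passed on LD only, 64 on CD only and 77 on both diets, and at 10 the counts were 7, 17 and 20. All interactions at a score of at least 10 split into 19.1%, 24% and 56.9%. An interaction that passed such a cut on 1 diet only can still have a score of 5 or more on the other diet. The cause of these shifts was not tested, apart from the smaller number of peaks, samples or interactions that the settings leave.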
